A study of Rattus norvegicus with 6 samples.

Results

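The genes of oxidative phosphorylation were followed in cultured primary disc cells from the temporomandibular (jaw) joint of rats. The disc is the fibrous cushion inside that joint. Members were taken by symbol and by chromosome. They were the nuclear rows named Ndufa, Ndufb, Ndufc, Ndufs or Ndufv with a number, Sdha to Sdhd, the Uqcr genes, Cyc1, Cox4 to Cox8 followed by a letter, and the Atp5 genes, together with every row of the mitochondrial chromosome, MT. The rule found 119 members among the 20675 genes of the table, 82 of them nuclear and 37 on MT. One group of 3 libraries, called GSK101, came from disc cells given GSK101, an agonist of the calcium-permeable channel TRPV4, for 24 h. The other 3 libraries, called Ctrl, came from disc cells kept with the solvent DMSO for an equal time. The dose, the strain and the age of the rats, and whether replicates are separate animals or cultures, were not given in the sources used here, so p-values measure the spread between these libraries, which may be technical.

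Oxidative phosphorylation turns the energy of nutrient oxidation into ATP at the inner mitochondrial membrane. Complex I (NADH dehydrogenase), complex II (succinate dehydrogenase), complex III (ubiquinol-cytochrome c reductase) and complex IV (cytochrome c oxidase) pass electrons to oxygen, complexes I, III and IV pump protons, and complex V (ATP synthase) uses the proton gradient to make ATP. Most subunits come from nuclear genes scattered over the chromosomes. A small set, which includes the catalytic core of complex IV and the membrane arm of complex I, comes from the mitochondrial genome, whose strands are each transcribed as long precursors that are then cut. Complex II is wholly nuclear.

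The values are RPKM, counted reads divided by gene length and by the total of the library, from 43061102 to 45705238 counted reads in a library. GSK101 was compared with Ctrl in the 12801 genes that reached 0.5 RPKM in 3 or more libraries, using limma on log2(RPKM + 0.5), and a gene was called at an adjusted p under 0.05. Across these genes 20.1% were called higher and 11.9% lower, so 62.9% of the calls were increases. That share was 72.4% after rescaling to TPM, 52.7% with median-ratio scaling, 48.1% with quantile normalization and 51.9% once the trend of each library with gene length was taken out. The median log2 fold change of all tested genes was 0.03. Pairs of libraries differed by a chi-square of 2.36 to 7.84 per gene within a group and 30.1 to 38.1 across groups. The fibroblast genes Col1a1 and Thy1 had 1903 and 1500.2 RPKM in Ctrl, and the 5 fibroblast markers found, mostly these 2, summed to 3230 to 3640.1 RPKM in Ctrl and 2826 to 3166 with GSK101. Of the 5, Lum (0.54), Dcn (0.41) and Pdgfra (0.43) rose, Thy1 (-0.23) fell and Col1a1 (-0.22) was not called, with a median log2 fold change of 0.41, and 1 rose without Ctrl_3 or without GSK101_2. None of the 4 epithelial markers and 1 of 4 endothelial markers (Kdr) reached the filter. Of the smooth muscle and pericyte markers 3 of 4 tested fell (Myh11, Mcam and Pdgfrb). The fourth, Cspg4, was not called at a log2 fold change of 0.20 (adjusted p = 0.116), was called higher with limma-voom or without Ctrl_1, and was below 0 with the length trend removed. The 5 found summed to 483 to 506 RPKM in Ctrl and 326 to 351 with GSK101, and Rgs5 stayed under the filter. The part of such shifts between cell states in the results on oxidative phosphorylation was not tested.

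Of the 117 members that entered the test, 6 rose and 22 fell with GSK101, and 89 were not called. Short MT rows without a gene name, 22 in all and assigned to no complex, made up 5 of those that rose and 4 of those that fell. The 13 protein genes of MT gave 0 that rose and 3 that fell. Among the 80 tested nuclear members 15 fell, or 18.8% against 11.9% of all tested genes, and 1 rose, or 1.25% against 20.1%. The shifts were small. The nuclear members had a median log2 fold change of -0.11, with a range from -0.54 to 0.22, and 72 of the 80 were below 0, as were 44.3% of all tested genes. Their median minus that of all genes was -0.14 with RPKM, TPM and median-ratio scaling, -0.12 with quantile normalization and -0.09 with the length trend removed. In bulk RNA a lower amount per cell and a smaller share of cells that carry the transcript cannot be told apart. The Ctrl and GSK101 values did not overlap in 24 of the 80 nuclear members with GSK101 lower and in 1 with GSK101 higher. All tested genes gave 18.7% and 28.5%. Over all 117 tested members, MT rows included, the counts were 33 and 7. Cox6b2 and Ndufb4l1 stayed under the filter and were not tested.

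**Figure D1:**
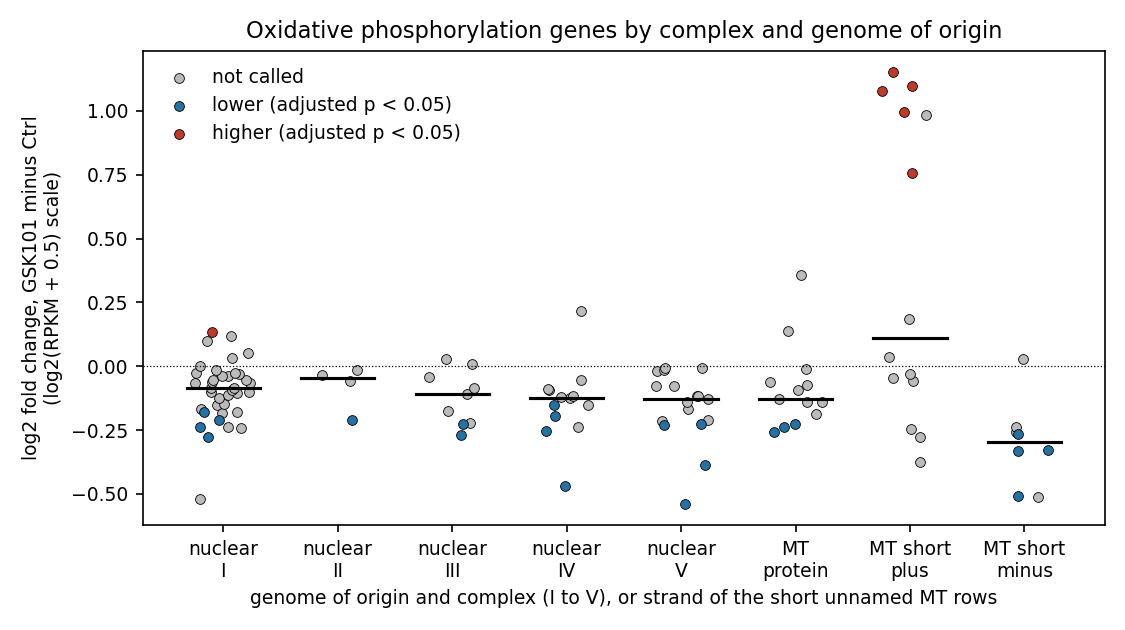
Fitted log2 fold change (vertical axis, GSK101 minus Ctrl on the log2(RPKM + 0.5) scale) of each tested member, grouped by genome of origin and complex, with the short MT rows split by strand; each point is 1 gene, colour gives the call and the bar is the group's median. Nuclear members lie mostly just below 0 in all 5 complexes, from -0.54 to 0.22, while the short plus strand rows of MT reach 1.15 and the short minus strand rows go down to -0.51.

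The count of nuclear members that fell depended on the libraries and on the scaling. It was 27 without Ctrl_1, 8 without Ctrl_2, 9 without Ctrl_3 and 7 without GSK101_2, and 27 and 28 with median-ratio scaling and quantile normalization, which both kept the same 15. Relative to the Ctrl mean of each gene, the median nuclear member stood at -0.08, 0.01 and 0.05 in Ctrl_1, Ctrl_2 and Ctrl_3 on the log2 scale, and at -0.07, -0.16 and -0.08 in GSK101_1, GSK101_2 and GSK101_3. These library medians overlapped, with Ctrl_1 between GSK101_1 and GSK101_3. The calls of Atp5e, Atp5l, Atp5sl, Cox4i1, Ndufv3, Sdhc and Uqcrq held under all 18 alternatives. Nuclear members together took 0.823 ± 0.031% of the counted reads in Ctrl and 0.767 ± 0.022% with GSK101 (SD, n = 3).

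The promoters of nuclear respiratory genes are known for binding sites of NRF1, of the ETS factor GABP (NRF2) and of YY1. Of the 82 nuclear members 70 had a promoter entry in RefSeq (GRCr8), 3 of these lay on another chromosome than the row in the file, and the 250 bases before the annotated start were read for the other 67. Both strands were searched, and matches to different motifs were allowed to overlap. The NRF1 letters, GCGCA followed by any base and GCGC, were found in 9 of 67 (13.4%) and in 3.75% of all 33469 rat promoter windows of this length, the ETS letters CCGGAAG in 17 (25.4%) and 7.27%, and the YY1 letters AAGATGGC in 2 (2.99%) and 1.63%. At least 1 of the 3 motifs was present in 25 of the 67. Each member was read in 1 window, the first listed for its gene. The 33469 windows were all entries, so a gene with several entries counts more than once among them. Among the 13 members that fell and had a window, 1 held the NRF1 letters, 3 the ETS letters and 0 the YY1 letters. The windows of 4 genes are shown because they are the nuclear member that rose (Ndufs1) and the called member with the smallest adjusted p that has a window in complexes I, IV and V. Each is printed 5′ to 3′ on the gene's own strand, and capitals mark a match.
Ndufs1, chr9:72073606-72073855, minus strand, GRCr8: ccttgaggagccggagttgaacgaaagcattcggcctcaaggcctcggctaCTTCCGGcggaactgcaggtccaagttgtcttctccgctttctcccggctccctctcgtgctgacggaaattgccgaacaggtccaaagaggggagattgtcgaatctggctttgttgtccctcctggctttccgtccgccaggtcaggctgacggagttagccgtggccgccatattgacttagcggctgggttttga
Ndufv3, chr20:9613536-9613785, plus strand, GRCr8: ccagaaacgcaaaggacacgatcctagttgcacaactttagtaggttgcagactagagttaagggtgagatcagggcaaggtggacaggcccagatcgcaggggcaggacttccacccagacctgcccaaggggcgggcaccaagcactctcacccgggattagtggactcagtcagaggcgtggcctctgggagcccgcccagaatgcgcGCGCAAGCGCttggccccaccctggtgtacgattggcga
Cox4i1, chr19:65630133-65630382, plus strand, GRCr8: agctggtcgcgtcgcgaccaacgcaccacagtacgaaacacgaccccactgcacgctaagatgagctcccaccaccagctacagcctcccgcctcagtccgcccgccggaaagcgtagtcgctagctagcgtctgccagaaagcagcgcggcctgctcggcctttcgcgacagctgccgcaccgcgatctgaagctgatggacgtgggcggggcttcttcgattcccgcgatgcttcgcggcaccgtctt
Atp5e (Atp5f1e in RefSeq), chr3:183680173-183680422, minus strand, GRCr8: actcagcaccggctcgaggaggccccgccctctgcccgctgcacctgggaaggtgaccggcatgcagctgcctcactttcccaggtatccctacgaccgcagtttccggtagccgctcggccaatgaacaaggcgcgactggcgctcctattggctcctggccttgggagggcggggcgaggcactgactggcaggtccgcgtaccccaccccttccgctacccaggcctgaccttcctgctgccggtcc
The capitals in Ndufs1 are the ETS letters, beginning 199 bases before the start, and those in Ndufv3 are the NRF1 letters, 39 bases before it. The windows of Cox4i1 and Atp5e held none of the 3 motifs as spelled here. A match in these letters was not tested for binding.

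Complex I had 38 nuclear members, of which 37 were tested. They were assigned by name, so they include Ndufa4, now known as a subunit of complex IV, and its relative Ndufa4l2, neither of which was called. Of the 37, 4 fell (10.8% against 11.9% of all tested genes), 1 rose and 32 were not called, with a median log2 fold change of -0.09. The number that fell was 1 without Ctrl_2, without GSK101_1 or without GSK101_2, 2 without Ctrl_3, and 11 without Ctrl_1, with median-ratio scaling or with quantile normalization. Ndufv3 (chr20:10265806-10275304, plus strand in Rnor_6.0, the build of all gene positions given here), an accessory subunit of the NADH-binding module, measured 153, 157 and 149 RPKM in the Ctrl libraries and 124, 129 and 126 with GSK101. It fell by 17.6% (log2 fold change -0.28, SE 0.04, adjusted p = 0.00169), and all GSK101 values were well below all Ctrl values. This is the gene whose window carries the NRF1 letters. Ndufb4, an accessory subunit of the membrane arm, went from 154, 161 and 160.5 RPKM in Ctrl to 138, 136 and 146 with GSK101, a fall of 11.8% (-0.18, SE 0.04, adjusted p = 0.0152). Ndufs8, a core subunit that holds iron-sulfur clusters, went from 18.1, 19.9 and 19.9 RPKM in Ctrl to 16.8, 16.03 and 16.8 with GSK101 (-0.21, SE 0.05, adjusted p = 0.0197). Ndufb2, another accessory subunit of the membrane arm, went from 114, 121 and 139 RPKM in Ctrl to 105, 101 and 111 with GSK101 (-0.24, SE 0.07, adjusted p = 0.0425), and its call was lost in 7 of 18 alternatives. The groups of these 3 genes did not overlap, and Ctrl_1 was the lowest Ctrl library for each.

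Ndufs1 (chr9:69919867-69953182, minus strand), the largest core subunit and a carrier of several iron-sulfur clusters, was the nuclear member that rose. Its RPKM was 33.8, 35.1 and 34.6 in Ctrl and 37.7, 37.2 and 38.8 with GSK101, an increase of 9.86% (0.13, SE 0.04, adjusted p = 0.0375). All 3 GSK101 libraries were above all 3 Ctrl libraries. This call was lost in 11 of 18 alternatives, among them median-ratio scaling, quantile normalization and the leaving out of any 1 of the 6 libraries. Ndufv1, the NADH-binding subunit, had 36.6, 35.9 and 32.2 RPKM in Ctrl and 34.4, 36.2 and 32.9 with GSK101, with full overlap and a 95% interval of the log2 fold change from -0.16 to 0.13.

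The most abundant nuclear gene of complex I, Ndufb9, a membrane-arm subunit, was not called. It had 322 ± 23.3 RPKM in Ctrl and 303 ± 7.23 with GSK101 (SD, n = 3, log2 fold change -0.09, adjusted p = 0.292), and the groups overlapped. The row of Ndufv3-ps1, named as a pseudogene, was counted among the 37 and had a fitted change of -0.52 that was not called, at only 0.781 RPKM in Ctrl. Several rows are uncertain in identity. Ndufv3-ps1, Ndufb4l1, Ndufs5 and Ndufa13 have a single exon in the file, and RefSeq (GRCr8) places Ndufs5 and Ndufa13 on another chromosome, as it does Uqcrb and Cox7a2l2. Uqcrb and Cox6b1 span more than 1 Mb, so each row may join several loci. None of these 7 rows was called, and neither was any of the 10 nuclear members whose exons overlap those of another gene.

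In complex II, which also works in the citric acid cycle, 1 of 4 members fell (25% against 11.9% of all tested genes). The other 3 were not called. The gene that fell was Sdhc (chr13:89498048-89518939, minus strand), a membrane anchor that carries part of the ubiquinone site. Its RPKM was 123, 126 and 121 in Ctrl and 107, 103 and 109.6 with GSK101, a fall of 13.6% (-0.21, SE 0.04, adjusted p = 0.00678). It was the most abundant of the 4 genes, and no GSK101 library reached the lowest Ctrl library.

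Among the 9 members of complex III, 2 fell (22.2% against 11.9% of all tested genes) and 7 were not called, with a median of -0.11. The number that fell was 1 without Ctrl_2, GSK101_1 or GSK101_2, and 4 with median-ratio scaling, quantile normalization or the replicate block. Uqcrq (chr10:38779132-38782419, minus strand), a small accessory subunit, measured 136, 141 and 155 RPKM in Ctrl and 121, 116 and 121 with GSK101 (-0.27, SE 0.05, adjusted p = 0.00721). Uqcr11, another small accessory subunit, measured 154, 169 and 170.1 RPKM in Ctrl and 139, 136 and 147 with GSK101 (-0.23, SE 0.05, adjusted p = 0.0141). For both, every GSK101 library was below every Ctrl library. Uqcrh, the hinge subunit next to cytochrome c1 and the most abundant gene of the complex, had 647, 715 and 729.7 RPKM in Ctrl and 682, 663 and 761 with GSK101, with overlapping groups and a log2 fold change of 0.01.

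In complex IV 4 of 13 tested nuclear members fell (30.8% against 11.9% of all tested genes) and 0 rose, with a median of -0.12. The number that fell was 1 without Ctrl_3 or without GSK101_2, and 2 without Ctrl_2 or without a variance trend. Cox4i1 (chr19:54245950-54252225, plus strand), the main form of the regulatory subunit 4, had 444, 466 and 452 RPKM in Ctrl and 372, 378 and 394 with GSK101. It fell by 16.1% (-0.25, SE 0.04, adjusted p = 0.00328), and a clear gap separated the groups. Cox7c, a small transmembrane subunit, measured 70.7, 73.6 and 74.98 RPKM in Ctrl and 65.99, 59.6 and 65.9 with GSK101 (-0.20, SE 0.05, adjusted p = 0.0237). Cox7a2l, which takes part in joining complexes III and IV into supercomplexes, measured 31.5, 32.9 and 34.2 RPKM in Ctrl and 29.6, 29.5 and 29.5 with GSK101 (-0.15, SE 0.04, adjusted p = 0.0345). The GSK101 values of Cox7a2l were almost identical to each other and lay just under the lowest Ctrl value. Its call was lost in 9 of 18 alternatives. Cox5b, which binds zinc and is the most abundant nuclear member of all, had 1097 ± 59.1 RPKM in Ctrl and 1057 ± 58.9 with GSK101 (SD, n = 3), and was not called (-0.05, adjusted p = 0.533).

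Cox6a2, the heart and skeletal muscle form of subunit 6a, was low but measurable, with 5.90, 4.79 and 6.48 RPKM in Ctrl, from 128, 100 and 136 reads, and 4.25, 3.35 and 4.35 with GSK101, from 90, 72 and 89 reads. It fell by 30.4% (-0.47, SE 0.13, adjusted p = 0.0247), and the lowest Ctrl library lay close above the highest GSK101 library. Of 7 skeletal muscle markers 3 were tested, of which 2 fell and Des, the muscle filament protein desmin, was not called at a log2 fold change of 0.26 (adjusted p = 0.189). The 7 together summed to 14.9 to 16.00 RPKM in Ctrl and 9.43 to 10.2 with GSK101. Acta1, skeletal muscle actin, went from 13.4, 11.9 and 11.9 RPKM in Ctrl to 7.73, 7.26 and 8.09 with GSK101 (-0.65, adjusted p = 0.000487). Myh4, a fast myosin heavy chain, went from 2.02, 2.04 and 2.12 RPKM in Ctrl to 1.02, 1.18 and 1.08 with GSK101 (-0.68, adjusted p = 0.00104). The muscle regulator Myog was at 0 in every Ctrl library, and Ckm, Myod1 and Myl1 stayed under the filter in all libraries. The part of muscle-type cells in the change of Cox6a2 was not tested.

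The members with an Atp5 name all had a fitted change below 0, 17 of 17, with a median of -0.13. It was 13 of 17 with TPM scaling and 16 of 17 with quantile normalization or the length trend removed. They were assigned to ATP synthase by name, so they include Atp5sl and Atp5s, which RefSeq lists as Dmac2 and Dmac2l. Atp5sl was called lower and Atp5s was not called. Of the 17, 4 were called lower (23.5% against 11.9% of all tested genes) and 0 higher. The number called lower was 8 without Ctrl_1 or after quantile normalization, and 7 after median-ratio scaling. Atp5e (chr3:172563105-172566010, minus strand), the epsilon subunit of the catalytic head's central stalk, measured 164, 179 and 186 RPKM in Ctrl and 138, 131 and 135 with GSK101. It fell by 23.7% (-0.39, SE 0.05, adjusted p = 0.00179), with every GSK101 library far below every Ctrl library. Atp5l, subunit g of the membrane part, measured 265, 266 and 282 RPKM in Ctrl and 236, 226 and 233 with GSK101 (-0.22, SE 0.04, adjusted p = 0.00541). Atp5g3, 1 of 3 genes for the same ring subunit c, measured 39.2, 37.6 and 39.3 RPKM in Ctrl and 35.9, 29.3 and 33.9 with GSK101 (-0.23, SE 0.07, adjusted p = 0.0455). GSK101_2 was the lowest library for Atp5g3, and the call was lost in 8 of 18 alternatives.

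Atp5sl (chr1:82413037-82419131, plus strand) had the largest fall among the called nuclear members on the fitted scale, and it carries an ATP synthase name without being a subunit: RefSeq lists it as Dmac2, which acts in the assembly of complex I. Its RPKM was 16.4, 16.5 and 17.5 in Ctrl and 11.1, 10.5 and 12.7 with GSK101, a fall of 31.9% (-0.54, SE 0.07, adjusted p = 0.00157). Neither of the main catalytic subunits was called. Atp5b, the catalytic beta subunit, had 424, 409.8 and 405 RPKM in Ctrl and 415, 413 and 403 with GSK101, and the 95% interval of its log2 fold change ran from -0.10 to 0.08. Atp5a1, the alpha subunit, had 189, 185 and 180.0 RPKM in Ctrl and 183, 181 and 186 with GSK101, with an interval from -0.10 to 0.07. The groups overlapped for both genes. Of the 5 genes of the catalytic head (Atp5a1, Atp5b, Atp5c1, Atp5d and Atp5e), a list made after the values had been seen, 1 was called lower. Atp5h, subunit d of the outer stalk and the most abundant nuclear gene of the complex, had 443 ± 42.4 RPKM in Ctrl and 405 ± 24.4 with GSK101 (SD, n = 3, -0.13, adjusted p = 0.23), and was not called.

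**Figure D2:**
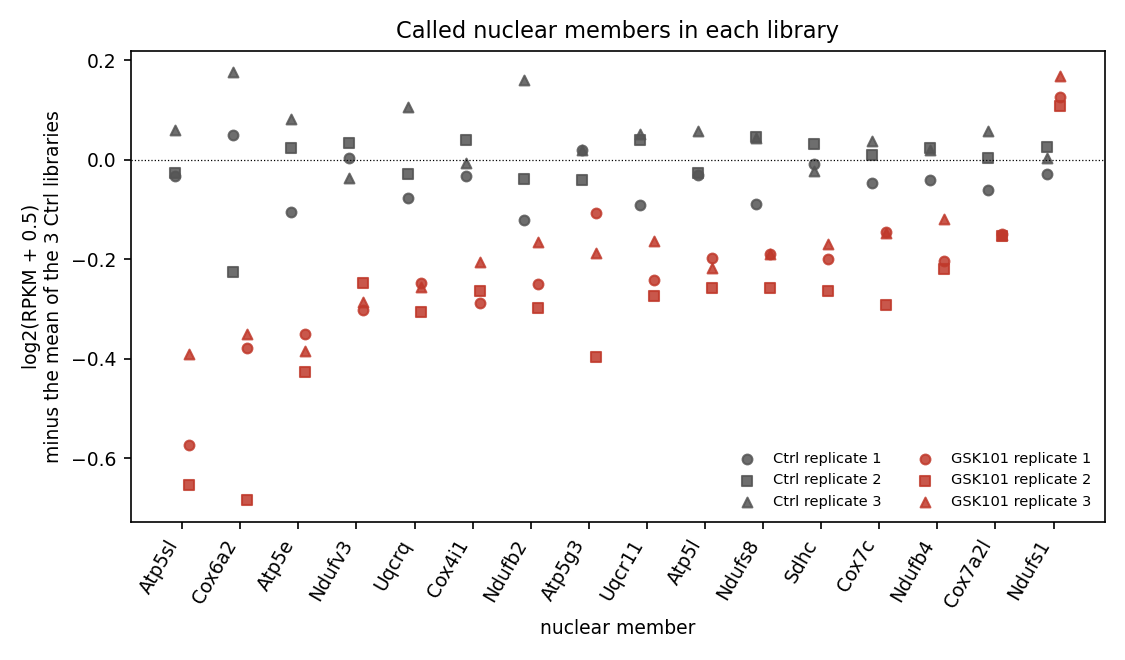
Log2(RPKM + 0.5) of the 16 called nuclear members in each library minus the mean of the gene's Ctrl libraries (vertical axis), with 3 Ctrl and 3 GSK101 libraries per gene shown by colour and marker. The GSK101 values lie below the Ctrl values in the 15 genes that fell, from Atp5sl (-0.54) to Cox7a2l (-0.15), and above them in Ndufs1 (0.13).

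Several subunits exist in alternative forms, and 7 ratios between such forms were compared within each library by exact two-sided permutation, for which 3 against 3 libraries can give no p below 0.1. Cox4i2, the form of subunit 4 that is known to be induced by low oxygen, amounted to 0.532%, 0.333% and 0.390% of the RPKM of Cox4i1 in Ctrl and 0.630%, 0.565% and 0.582% with GSK101 (exact p = 0.1, adjusted over the 7 ratios 0.35). Cox6a2 amounted to 1.28%, 1.01% and 1.19% of Cox6a1 in Ctrl and 0.919%, 0.796% and 0.980% with GSK101, with the same p-values. Neither pair of groups overlapped, and neither ratio can pass the threshold in a design of this size. Cox4i2 itself was not called (2.36, 1.55 and 1.76 RPKM in Ctrl, 2.34, 2.13 and 2.29 with GSK101). Ndufa4l2, a low oxygen-induced relative of the complex IV subunit Ndufa4, amounted to 3.72 ± 0.81% of Ndufa4 in Ctrl and 4.18 ± 0.11% with GSK101 (SD, n = 3, exact p = 0.5). The 3 genes for subunit c held similar parts of their sum, with Atp5g1 at 36.1 ± 0.49% and 37.1 ± 1.70% (exact p = 0.4), Atp5g2 at 30.4 ± 1.46% and 31.1 ± 0.27% (exact p = 0.6) and Atp5g3 at 33.5 ± 1.49% and 31.8 ± 1.91% (exact p = 0.5). Cox6b2 was at most 0.0825% of Cox6b1 (exact p = 0.6). No row carried the symbol Cox7a1, Cox7a2 or Cox8b, so ratios with them were not computed.

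The 13 protein genes of the mitochondrial genome were far more abundant per length than the nuclear members. Their summed RPKM was 4.44 ± 0.24 times that of the nuclear members in Ctrl and 4.46 ± 0.07 times with GSK101 (SD, n = 3), with the GSK101 libraries inside the Ctrl range. All rows of MT took 2.99%, 3.41% and 3.25% of the counted reads in Ctrl and 2.98%, 2.75% and 2.999% with GSK101, and these overlapped. Of the 13 protein genes 3 fell (23.1% against 11.9% of all tested genes) and 0 rose (0% against 20.1%). Of the 13, 11 were below 0, and the median log2 fold change was -0.13. With quantile normalization the median was 0.01, 6 of the 13 were below 0, 0 fell and 1 rose. Without Ctrl_2 or without GSK101_2 the number that fell was 0 too.

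The 3 that fell encode core subunits of complexes III and IV, and Mt-co2, another core subunit of complex IV, was not called. Mt-cox3, the third core subunit of complex IV, had 2408, 2742 and 2525 RPKM in Ctrl and 2204, 2014 and 2194 with GSK101 (-0.26, SE 0.06, adjusted p = 0.0171). Mt-co1, the subunit that binds oxygen, had 4389, 4686 and 4535 RPKM in Ctrl and 3999, 3588 and 4073 with GSK101 (-0.22, SE 0.06, adjusted p = 0.0265), but 0.04 with an adjusted p of 0.718 after quantile normalization. Mt-cyb, cytochrome b of complex III, had 2054, 2045 and 1967 RPKM in Ctrl and 1795, 1547 and 1806 with GSK101 (-0.24, SE 0.07, adjusted p = 0.0275). In all 3 genes the GSK101 values lay below the Ctrl values, with GSK101_2 the lowest library each time. Mt-co2, the subunit that receives electrons from cytochrome c, overlapped fully, at 3372 ± 396 RPKM in Ctrl and 3219.8 ± 149 with GSK101 (SD, n = 3, -0.06).

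None of the 7 mitochondrial genes of complex I was called. Mt-nd3, a proton-pumping arm subunit, was by far the lowest of the protein genes and had the largest fitted change, from 68.7, 81.1 and 98.4 RPKM in Ctrl to 109, 95.3 and 111 with GSK101 (0.36, SE 0.12, adjusted p = 0.0586). Ctrl_3 lay among the GSK101 values. The other plus strand complex I genes of the membrane arm ranged from -0.14 for Mt-nd5 and -0.13 for Mt-nd2 through -0.09 for Mt-nd1 and -0.07 for Mt-nd4 to 0.14 for Mt-nd4l. Mt-nd6, the protein gene on the minus strand, had 3165 ± 326 RPKM in Ctrl and 2773 ± 132 with GSK101 (SD, n = 3, -0.19, adjusted p = 0.105), with overlap. The ATP synthase genes Mt-atp8, the member with the highest RPKM at 12099 ± 1005 in Ctrl and 11979 ± 599 with GSK101 (-0.01), and Mt-atp6 (-0.14) were not called either. The row of Mt-atp8 has only 204 bases. By counted reads in Ctrl_1, Mt-co1 (309938) and Mt-atp6 (199364) stood above it (101998). Mt-atp8 and Mt-atp6 share 43 bases, Mt-nd4l and Mt-nd4 share 7, and Mt-nd5 and Mt-nd6 share 23 on opposite strands, so reads in these stretches may be split or lost.

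**Figure D3:**
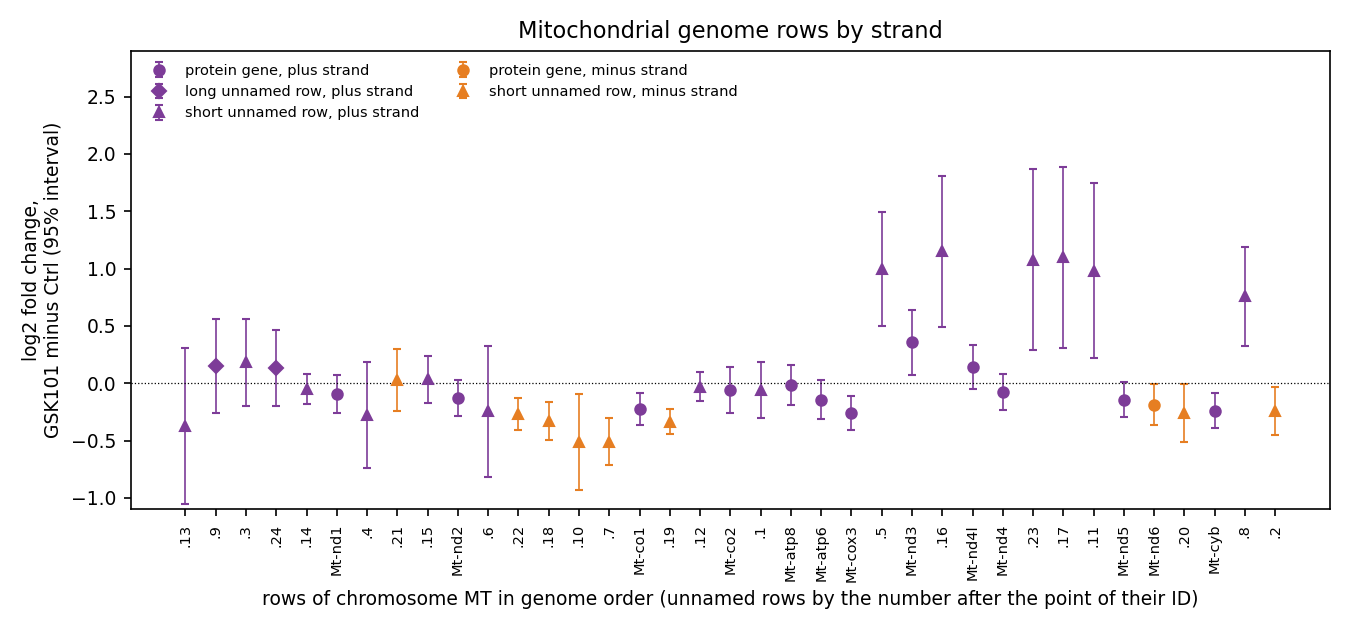
Fitted log2 fold change with its 95% interval (vertical axis, GSK101 minus Ctrl) for the 37 rows of MT in genome order, with colour for the strand and marker shape for the kind of row. Protein genes lie between -0.26 and 0.36, a run of short plus strand rows from the end of Mt-cox3 to the start of Mt-nd5 lies near 1, and the short minus strand rows lie mostly below 0.

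The remaining 24 rows of MT carry only clone identifiers, were assigned to no complex and are described by size and place. The libraries were made from polyadenylated RNA, and what kind of RNA these rows measure was not tested. The 2 long rows, with 958 and 1571 bases, were not called. The longer one measured 84.8, 85.6 and 128 RPKM in Ctrl and 108, 104 and 109 with GSK101, and the shorter one 109.7, 90.6 and 159.5 RPKM in Ctrl and 127, 124 and 137 with GSK101. In both rows Ctrl_3 was the highest of all 6 libraries. The 22 others have 60 to 75 bases, less than a sequencing read, and took 0.025 ± 0.003% of the counted reads in Ctrl and 0.026 ± 0.001% with GSK101 (SD, n = 3).

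The short rows were split by strand, a split outside the planned comparisons by complex and genome of origin. On the plus strand 5 of 14 rose and 0 fell, the median log2 fold change was 0.11, and the groups did not overlap in 6, all with GSK101 higher. On the minus strand 4 of 8 fell and 0 rose, with a median of -0.30, and the groups did not overlap in 6, all with GSK101 lower. Over all tested genes 20.1% were called higher and 11.9% lower. Their groups did not overlap in 28.5% with GSK101 higher and in 18.7% with GSK101 lower. The summed RPKM of the plus rows over that of the minus rows was 1.33, 1.44 and 1.63 in Ctrl and 2.09, 1.99 and 2.18 with GSK101, with no overlap. The minus rows summed to 1460 ± 85.3 RPKM in Ctrl and 1212 ± 5.50 with GSK101, and the plus rows to 2150 ± 346 and 2531 ± 125 (SD, n = 3), where Ctrl_3 reached the GSK101 level. Most of the plus sum came from AY172581.15, with 1369 RPKM in Ctrl and 1394 with GSK101 (0.03, not called). In the minus sum AY172581.7 went from 436 to 304 RPKM. Of the 14 plus rows 6 had a fitted change below 0, as did 7 of the 8 minus rows. Leaving out Ctrl_1, Ctrl_2, GSK101_2 or GSK101_3 left 2 plus rows that rose, leaving out Ctrl_3 gave 7, and testing with no filter gave 1. The minus rows that fell numbered 4 or 5 with any library left out, 2 with limma-voom, 6 with quantile normalization and 7 with the length trend removed. Over all 28 plus strand rows of MT, protein genes and long rows included, 5 rose and 3 fell, with a median of -0.04. The 3 that fell were the protein genes Mt-co1, Mt-cox3 and Mt-cyb. Over all 9 minus strand rows, Mt-nd6 included, 0 rose and 4 fell, with a median of -0.27. The short rows named next were chosen after their values had been seen.

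All but 1 of the plus strand rows that rose lie between Mt-cox3 and Mt-nd5. Between Mt-cox3 and Mt-nd3 lies AY172581.5 (chrMT:9383-9450, plus strand), with 8.04, 6.02 and 12.3 RPKM in Ctrl and 17.5, 15.6 and 19.1 with GSK101 (0.998, SE 0.22, adjusted p = 0.0105), from 25, 18 and 37 reads in Ctrl and 53, 48 and 56 with GSK101. Between Mt-nd3 and Mt-nd4l lies AY172581.16 (chrMT:9800-9867, plus strand), with 55.99, 54.5 and 122 RPKM in Ctrl and 152, 146 and 187 with GSK101 (1.15, SE 0.28, adjusted p = 0.0181). Between Mt-nd4 and Mt-nd5 lie AY172581.23, with 138, 88.96 and 261 RPKM in Ctrl and 290.3, 272 and 386 with GSK101 (1.08, adjusted p = 0.0454), and AY172581.17, with 77.7, 47.00 and 138 RPKM in Ctrl and 159.8, 148 and 211 with GSK101 (1.10, adjusted p = 0.0414). The third row of that gap, AY172581.11, had a fitted change of 0.98 and was not called (adjusted p = 0.0549). Mt-nd3, with its uncalled change of 0.36, lies inside the same stretch. After Mt-cyb lies AY172581.8, with 7.84, 6.11 and 11.2 RPKM in Ctrl and 13.1, 15.8 and 13.5 with GSK101 (0.76, adjusted p = 0.0171). In all 5 rows Ctrl_3 was the highest Ctrl library, and in 2 of them, AY172581.17 and AY172581.23, it came close to the lowest GSK101 library. The calls of these 2 rows were lost in 8 and 9 of 18 alternatives, and that of AY172581.5 in none.

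The minus strand rows that fell lie around Mt-co1. AY172581.22, AY172581.18 and AY172581.7 stand between Mt-nd2 and Mt-co1, and AY172581.19 overlaps the end of Mt-co1 by 3 bases on the opposite strand. AY172581.19 (chrMT:6865-6933, minus strand) had 312, 330.2 and 296 RPKM in Ctrl and 249, 246 and 247 with GSK101 (-0.33, SE 0.05, adjusted p = 0.00184). AY172581.7 (chrMT:5256-5321, minus strand) had 461, 369 and 477 RPKM in Ctrl and 301, 306 and 305 with GSK101 (-0.51, SE 0.09, adjusted p = 0.00456). The GSK101 libraries were nearly identical in both rows and lay under all Ctrl libraries. AY172581.18 (-0.33, adjusted p = 0.0111) and AY172581.22 (-0.27, adjusted p = 0.0121) fell too. Their neighbour AY172581.10 had a fitted change of -0.51 and was not called (adjusted p = 0.0629). The use of strand in counting was not stated, so reads of facing transcripts may be mixed in these rows.

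**Figure D4:**
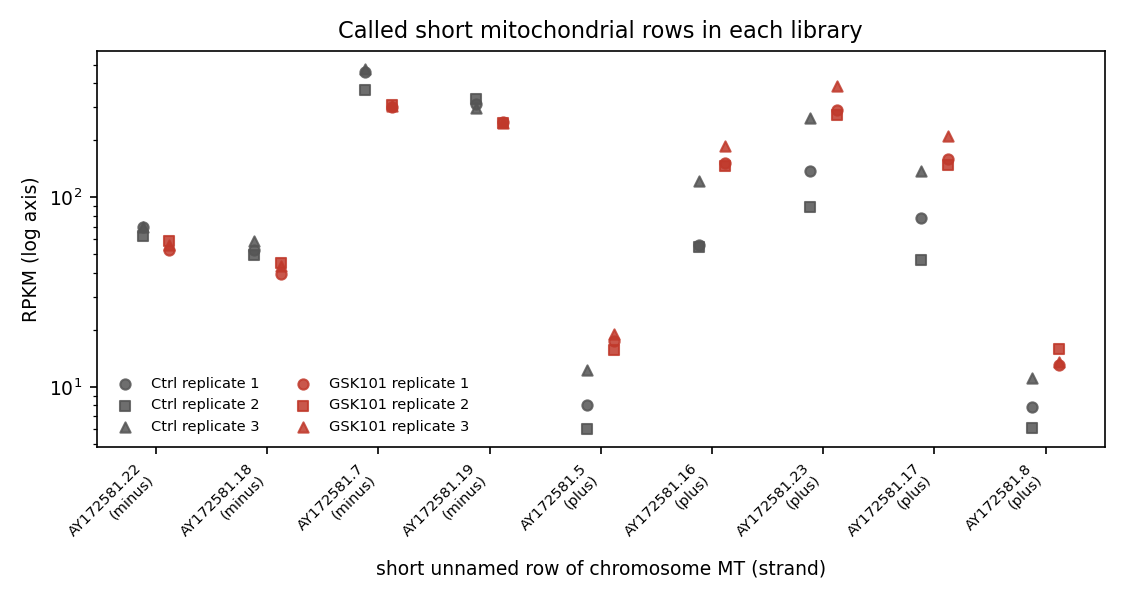
RPKM on a log axis of the 9 called short MT rows in each of the 6 libraries, in genome order with the strand in brackets. Minus strand rows are lower in all 3 GSK101 libraries and plus strand rows higher, and Ctrl_3 is the highest Ctrl library in each plus strand row.

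Fold change and gene length were related across genes. Tested nuclear members had a median length of 766.5 bases, against 2137 bases over all tested genes. Spearman's rho between length and log2 fold change was 0.324 over the 80 members and 0.181 over all 12801 genes, given as a description because genes of 1 library share its depth and fragment sizes. In the eighth of genes with the shortest rows, up to 660 bases, the median log2 fold change was 0.01 over 1605 genes and -0.15 over the 33 members among them. Of those 33 members 7 fell (21.2%), and 9.28% of all genes in that eighth did. From 661 to 1276 bases the medians were -0.03 and -0.10, with 5 of 28 members called lower (17.9%) and 17.2% of all genes. From 1277 to 1700 bases 2 of 7 members fell (28.6%) and 16.8% of all genes. From 1701 to 2137 bases 1 of 7 members fell (14.3%) and 15.5% of all genes. Of the few longer members 0 fell. With the length trend of each library removed, 19 nuclear members fell and 0 rose, and 14 of the 15 calls were kept.

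**Figure D5:**
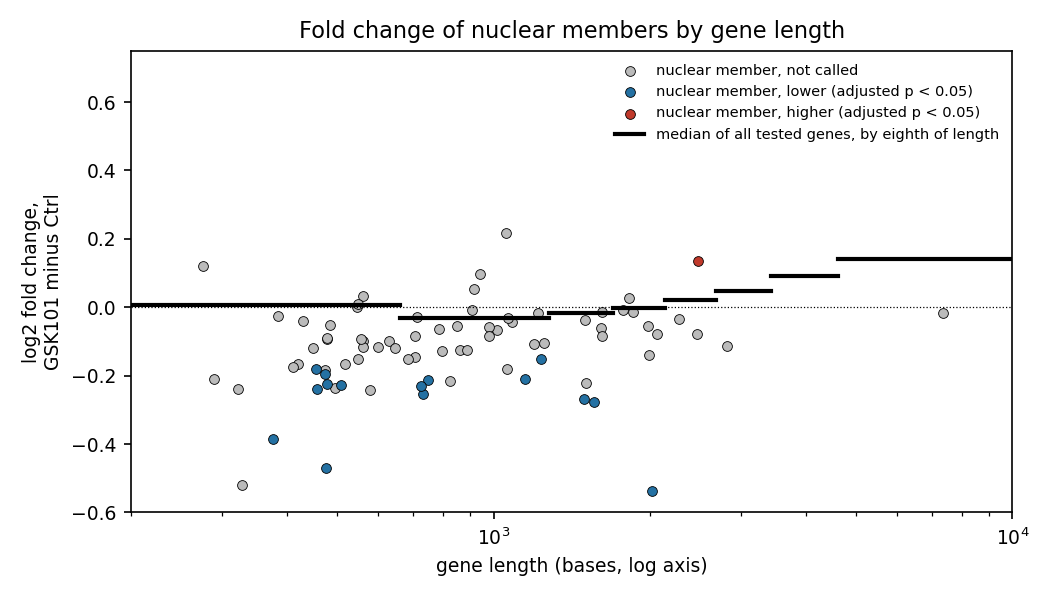
Fitted log2 fold change (vertical axis) against gene length in bases (log axis) for the tested nuclear members, coloured by call, with the median of all tested genes in each length eighth as a line. The median of the members is below that of all genes in every eighth that holds members, with medians of -0.15 against 0.01 in the shortest eighth. Few members are long: 3 lie from 2138 to 2685 bases, 1 from 2686 to 3417 and 1 from 4615 bases up.

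Genes that build and serve the chain were listed apart from the members. Of 42 assembly factors 3 rose and 4 fell (7.14% and 9.52%, against 20.1% and 11.9% of all tested genes), with a median of -0.04. The number that fell was 1 or 2 with any library left out, and 1 with TPM, without a filter or with the replicate block. The number that rose was 1 without GSK101_1, GSK101_2 or GSK101_3 or with quantile normalization. Bcs1l, which inserts the iron-sulfur protein into complex III, rose from 5.32, 5.16 and 5.15 RPKM in Ctrl to 7.01, 6.63 and 8.04 with GSK101 (0.43, adjusted p = 0.00444). Sdhaf4, a complex II assembly factor, fell from 28.9, 30.4 and 33.1 RPKM in Ctrl to 26.8, 24.95 and 25.1 with GSK101 (-0.26, adjusted p = 0.0139), and Ndufaf2, a complex I assembly factor, rose from 26.96, 24.8 and 23.6 RPKM in Ctrl to 28.8, 28.6 and 30.2 with GSK101 (0.21, adjusted p = 0.0241). None of these groups overlapped, but the call of Ndufaf2 was lost in 6 of 18 alternatives.

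Among 24 tested genes of mitochondrial DNA replication and transcription 4 rose and 0 fell (16.7% against 20.1% of all genes), with a median of 0.11. With quantile normalization, without GSK101_1 or without GSK101_3 the number that rose was 2. Tfam, which packages and transcribes the mitochondrial genome, had 19.8, 22.2 and 20.3 RPKM in Ctrl and 24.7, 24.6 and 24.4 with GSK101 (0.24, adjusted p = 0.0114). Mgme1, an exonuclease of mitochondrial DNA, had 2.20, 2.33 and 2.36 RPKM in Ctrl and 3.15, 3.19 and 3.22 with GSK101 (0.40, adjusted p = 0.00384), and Ptcd3, which acts in mitochondrial translation, 6.11, 7.03 and 7.41 RPKM in Ctrl and 8.68, 8.12 and 8.96 with GSK101 (0.31, adjusted p = 0.0196). In each of them all GSK101 libraries were above all Ctrl libraries.

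Of 17 regulators of mitochondrial biogenesis 12 were tested, of which 4 rose and 1 fell (33.3% and 8.33%, against 20.1% and 11.9% of all tested genes), with a median of 0.18, but 0.07 with the length trend removed and 0.11 with quantile normalization. Under the alternatives 3 to 7 rose and 1 fell. Gabpb2, a subunit partner of the ETS factor GABP, measured 6.22, 6.38 and 7.22 RPKM in Ctrl and 12.2, 12.1 and 12.3 with GSK101 (0.84, SE 0.06, adjusted p = 0.000168), and a wide gap separated the groups. Gabpa, the DNA-binding subunit of GABP, named here after its values had been seen, measured 11.8, 13.4 and 14.3 RPKM in Ctrl and 16.2, 16.8 and 17.5 with GSK101 (0.35, adjusted p = 0.00922). Sirt1, a nuclear deacetylase, rose from 3.85 ± 0.137 RPKM in Ctrl to 5.15 ± 0.207 with GSK101, and Sirt3, a mitochondrial deacetylase, fell from 3.97 ± 0.243 RPKM in Ctrl to 2.76 ± 0.234 with GSK101 (SD, n = 3, adjusted p = 0.00354 and 0.00444). Ppargc1a, the coactivator PGC-1 alpha, was near 0 in both groups, at 0.0438 and 0.0927 RPKM, and was not tested.

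The mobile carriers and side entries of the chain had 14 tested genes, of which 2 rose and 2 fell (14.3% each, against 20.1% and 11.9% of all tested genes), with a median of -0.02. Without GSK101_1 or without GSK101_2, 0 rose and 0 fell, without Ctrl_2 0 rose, and without Ctrl_1, without Ctrl_3, with TPM or without a filter 0 fell. With TPM the median was 0.01. Cycs, cytochrome c, which carries electrons from complex III to complex IV, rose from 109, 111 and 119.5 RPKM in Ctrl to 126, 125 and 131 with GSK101 (0.17, adjusted p = 0.0276), with no overlap. Gpd2, the mitochondrial glycerol-phosphate dehydrogenase, rose from 1.50 ± 0.193 RPKM in Ctrl to 2.10 ± 0.105 with GSK101, and Ucp2, an uncoupling protein of the inner membrane, fell from 1.91 ± 0.165 RPKM in Ctrl to 1.44 ± 0.107 with GSK101 (SD, n = 3, adjusted p = 0.0201 and 0.0388). The calls of Cycs and Ucp2 were lost in 7 and 9 of 18 alternatives. Of 74 mitochondrial ribosomal protein genes, which translate the mitochondrial messages, 5 rose and 6 fell (6.76% and 8.11%), with a median of -0.01, but 0.03 with TPM. The number that fell was 2 or 3 without Ctrl_2, Ctrl_3, GSK101_1 or GSK101_2 or with limma-voom, and 10 after median-ratio or quantile scaling. The number that rose was 2 without GSK101_1, 3 without Ctrl_1, without GSK101_3 or with quantile normalization, and 8 with TPM. Mrps34 rose from 13.8 ± 0.704 RPKM in Ctrl to 17.2 ± 0.852 with GSK101, Mrps18a from 28.99 ± 0.509 RPKM to 33.6 ± 1.31, and Mrpl55 fell from 22.2 ± 0.448 RPKM in Ctrl to 18.9 ± 0.674 with GSK101 (SD, n = 3, adjusted p = 0.00603, 0.00995 and 0.00747).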

How the data were processed

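RNA was measured in 6 libraries of primary rat temporomandibular joint disc cells, 3 given GSK101 and 3 given DMSO for 24 h. Per the labels' protocols, polyadenylated RNA went into stranded libraries with unique molecular identifiers and was sequenced with paired ends. The authors deposited RPKM values for 20675 genes, already scaled to each library's reads and to gene length. Per the submitters' processing notes, the genome build was Rnor_6.0 and the tools were STAR 2.5.3a, Trimmomatic 0.36, edgeR 3.12.1, Subread 1.5.1 and featureCounts, with no roles or order. Collapsing of molecular identifiers, use of strand and treatment of multiply mapping reads: not given in the sources used here.

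RPKM multiplied by gene length and by an inferred library total gave whole reads, within 0.01, for 100% of the values. The total was inferred from the smallest nonzero value of each library, so that the values came out whole. An even number was found for 71.3% to 74.7% of the genes with 1 to 10 reads, so mates may have been counted separately and fragments may be fewer than reads. Genes that reached 0.5 RPKM in 3 or more libraries were tested in R 4.3.3 with limma 3.58.1. The model used log2(RPKM + 0.5), the group alone, a mean-variance trend and Benjamini-Hochberg adjustment over all 12801 tested genes. All fold changes are on that scale, which understates the change of low genes. The fit was tested on simulated data first. Ratios between subunit forms were compared by exact permutation. Symbols were used as in the file, and promoter windows were matched to RefSeq (GRCr8) by symbol or synonym. Figures were drawn with matplotlib 3.10.9.

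The members and lists were chosen with earlier results of these data known. Named are the mitochondrial protein genes and long rows, per complex the most abundant nuclear member and up to 4 called members with the smallest adjusted p, the alternative subunit forms, the 2 largest nuclear changes each way, and up to 3 called genes per supporting list. Other named genes, such as Ndufv1, Atp5a1, Atp5b, Ndufb2, the marker genes and the short rows of MT, were chosen after their values had been seen. The 18 alternatives covered pseudocounts, filters, scalings, gene length, the variance model, limma-voom on the recovered reads, a block for the replicate number and each library left out in turn.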

Additional observations from a re-analysis of the deposited data

How the results depend on the processing

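The nuclear median log2 fold change stayed below 0 under all 18 alternatives, from -0.15 with median-ratio scaling to -0.07 with TPM. Nuclear members that fell (15) numbered 27 with median-ratio scaling, 28 with quantile normalization and 7 to 27 with 1 library left out. The 1 that rose became 0 with median-ratio scaling, quantile normalization, the length trend removed or no variance trend, and 0 to 1 with a library left out, never Ndufs1. Over all members, 6 rose, but 2 without a filter, 3 without a variance trend and 2 to 11 with a library left out, and 22 fell, but 34 with median-ratio scaling or quantile normalization and 12 to 36 with a library left out. Of the mitochondrial protein genes 1 rose with TPM, quantile normalization, the length trend removed or limma-voom, and 0 to 2 with a library left out. None fell (0) without a filter or with quantile normalization, and 0 to 4 with a library left out; the median was then 0.009 with quantile normalization, and Mt-co1 reversed to 0.04. The replicate numbers did not pair the libraries, since same-numbered deviations correlated at 0.054, -0.063 and 0.052. With the replicate block 19 nuclear members fell and 0 rose, and 1 mitochondrial protein gene rose. Of 1295 values of 72 named or called genes under an alternative, 124 lost their call, 34 gained one, 1 reversed and 22 changed sign with no call on either side, while 19 genes kept their call throughout. The cause of these differences was not tested. Rows with few reads, such as AY172581.5, are limited by depth.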
